A study of Mus musculus with 3 samples.

Results

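The 10 genes described here are markers and factors by which fibroblasts are recognised: Thy1, Ly6a, S100a4, Pdgfra, Pdgfrb, Twist1, Twist2, Prrx1, Dpt and Pamr1. They were chosen by name, with earlier results of these data known, and are 10 of the 20471 genes in the count table. Their rows were read as CPM, the count of a gene per 1000000 counts of its well, in wells of wild-type mouse embryonic fibroblasts (MEF) on 3 plates. The assay was DRUG-seq2, in which each well of a plate receives its own barcode during reverse transcription and all wells of the plate then become 1 library. The screening wells were kept for 4 days in CFAE+8 medium, each with a single kinase inhibitor or related compound of a commercial library. A total of 218 compound wells with 211 compounds were used: 87 compounds on plate 1, 84 on plate 2 and 40 on plate 3. A further 30 wells of plate 3 carried the name of a medium alone. MEF, bC6FAE[10], bCLFAE and bCSFAE had 4 wells each, basal, bCFAE and bC6FAE[2] had 3 each, and bC8FAE had 5. The 6 media with FAE in their name are called FAE media below. The sources used here do not say what these media contain, and their names serve only as names. The 5 bC8FAE wells were taken, from their name, as the screening medium without a compound, and no vehicle well was labelled. The cells of every group, media and compound wells alike, were wild type.

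Fibroblasts are the mesenchymal cells that make and remodel the matrix of connective tissue, and no single gene defines them. They are usually recognised by surface proteins (THY1, and LY6A, also called SCA-1), by the calcium-binding protein S100A4, by the receptors for platelet-derived growth factor (PDGFRA and PDGFRB), and by transcription factors of the embryonic mesenchyme. TWIST1 and TWIST2 are basic helix-loop-helix factors that pair with E proteins and bind the E-box, and PRRX1 is a homeobox factor of limb and craniofacial mesenchyme. DPT (dermatopontin) is a secreted matrix protein, and PAMR1 is a secreted protein with a serine protease-like domain. When fibroblasts are pushed toward another cell fate, such genes are commonly read to see how far the starting identity has been lost.

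All 10 genes are protein-coding in GENCODE vM21 on GRCm38 (mm10). Thy1 lies at chr9:44043384-44048579, Ly6a at chr15:74994877-74998031, S100a4 at chr3:90603771-90606045, Pdgfra at chr5:75152292-75198215, Twist1 at chr12:33957671-33959829 and Pamr1 at chr2:102550012-102643041. Chromosome 1 holds 3 of the others, Twist2 at chr1:91801461-91848028, Prrx1 at chr1:163245119-163313710 and Dpt at chr1:164796644-164824266. Prrx1 and Dpt are 1482934 bases apart. Ly6a and Prrx1 are on the minus strand. Annotated genes overlap S100a4, Pdgfra and Twist2 (Gm42674, Gm42802, Gm42803, Mir7025 and Gm29100). The sources used here do not say whether strand was used in counting, so reads of the antisense genes Gm42802, Gm42803 and Gm29100 cannot be told from those of Pdgfra and Twist2. Gm42674 and Mir7025 lie on the same strand as S100a4 and Pdgfra, which they overlap. Reads from those overlaps could not be told apart by strand either.

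The promoters of Dpt and Twist2 are shown as those of a secreted gene and a transcription factor whose levels the results below describe. RefSeq promoters (GRCm38.p6) were matched for 6 of the 10 genes. Each sequence is the 250 bases before the RefSeq start on the plus strand, chr1:164796413-164796662 for Dpt and chr1:91801211-91801460 for Twist2, 5′ to 3′, with capitals marking matches to the E-box letters CANNTG, which read the same on both strands.
Dpt: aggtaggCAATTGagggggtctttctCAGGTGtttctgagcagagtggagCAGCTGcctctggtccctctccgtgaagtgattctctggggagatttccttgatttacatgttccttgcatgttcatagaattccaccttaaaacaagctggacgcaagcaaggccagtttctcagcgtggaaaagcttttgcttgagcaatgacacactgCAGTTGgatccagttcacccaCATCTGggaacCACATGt
Twist2: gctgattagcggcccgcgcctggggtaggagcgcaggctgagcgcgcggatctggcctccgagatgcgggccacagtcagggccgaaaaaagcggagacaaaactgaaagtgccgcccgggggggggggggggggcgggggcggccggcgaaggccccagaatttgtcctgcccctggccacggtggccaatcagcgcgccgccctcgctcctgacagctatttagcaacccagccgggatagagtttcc
The Dpt window held 6 matches. Of 32851 promoters of this length, 66.2% held at least 1 match and 0.274% held at least 6. The windows of Twist2, Twist1, Prrx1 and S100a4 held 0 matches and that of Pdgfra held 1. The letters TGANTCA (AP-1) and CCGGAA (ETS), searched on both strands, were in 6.75% and 12.0% of all promoters and in none of these 6. A match is a description of the letters. No binding was measured, and no relation of these letters to the levels below was tested.

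The count behind a value sets its precision. Median totals per screening well were 318166 on plate 1, 606767 on plate 2 and 427868 on plate 3, and the media wells had totals from 119295 (bC8FAE 4) to 726228. At such totals, Pamr1, Dpt, Pdgfra and Pdgfrb rest on few counts per well, whereas Thy1, Ly6a, S100a4 and Twist2 rest on many. Twist1 also rests on few in the MEF and basal wells, with 3 to 32 counts each. The wells named nocell, with 0.953% and 5.64% of the median media total, were not compared. Members were counted there too: the larger, with 25308 counts in all, held 45 of Thy1, 18 of Twist2, 9 of Twist1 and 0 of Ly6a. How far such background enters the other wells was not tested. Summed markers of the fibroblast list (7 genes) were at 4155 to 7430 CPM in every media well. The members Thy1, Pdgfra and Pdgfrb belong to that list, beside Col1a1, Col1a2, Col3a1 and Vim. In bC6FAE[10] Thy1 alone was at 3534 to 4906 CPM, where the list summed to 6253 to 7430. The sum is therefore not independent of the members. The endothelial list summed to at most 17.0 CPM in any media well, and Ptprc was at 0 in every media group. The 5 epithelial markers summed to 101 to 121 CPM in bCFAE, above basal (28.5 to 52.9) and MEF (21.6 to 78.9), and to 19.8 to 147 in the other media, with Epcam at 0 in all but bCLFAE. The 4 neural markers summed to 28.4 to 53.8 CPM in MEF and basal and to 79.3 to 180.4 in the FAE media, with no overlap. Their gene Nefl, a neurofilament subunit, rose by 4.01 ± 0.48 on the log2 scale in bCFAE against basal (adjusted p = 6.35e-10) and by 5.19 ± 0.53 in bC8FAE against MEF (3.19e-12), while Tubb3 passed in neither. The remaining macrophage markers summed to 141 to 324 CPM in the MEF wells, 87.4 to 251 in basal and 20.9 to 83.8 in the other media. The part of these markers in the results below was not tested. In wells of bulk RNA, fewer cells of a type and less RNA per cell cannot be told apart. Nothing names separate cultures, so the p values measure the spread between wells of 1 plate, which may be technical.

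The MEF and basal wells were set against each other first, and 2 of the 9 members that could be tested fell. S100a4 was at 3048, 2774, 2998 and 5010.3 CPM in the MEF wells and at 1373, 1242 and 1195 in basal. The groups did not overlap, and S100a4 fell by 1.40 ± 0.17 (SE) on the log2 scale (adjusted p = 1.29e-07). Dpt was at 107, 125, 137 and 108 CPM in MEF and at 53.6, 32.3 and 66.6 in basal, a log2 fold change of -1.16 ± 0.24 (adjusted p = 0.00392). Without the second basal well, the lowest for Dpt, the value was -0.92 and no longer passed. Ly6a was lower in every basal well (2128, 2044 and 1718 CPM) than in the lowest MEF well (2198), but its log2 fold change of -0.51 ± 0.14 had an adjusted p of 0.0593. The other 6 gave values from -0.94 ± 0.36 (Twist1) to 0.33 ± 0.15 (Prrx1), none past the threshold. Over all 6985 genes tested, 0.687% were called, and the members' median was -0.42 beside -0.003 over all genes. The wells of the 2 groups did not overlap for 3 members, and for 636 of all genes tested. Pamr1 passed the filter on low counts in no media fit and is given by its CPM only.

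The bCFAE wells were compared with basal next. Here all 9 tested members changed, 7 lower and 2 higher, where 34.5% of all genes were called. Ly6a was at 150.4, 167 and 154 CPM in bCFAE against 1718 to 2128 in basal, a log2 fold change of -3.78 ± 0.17 (adjusted p = 2.69e-26). Dpt was at 7.52, 2.75 and 4.65 CPM, a log2 fold change of -3.42 ± 0.41 (adjusted p = 7.46e-10). S100a4 was at 212, 257 and 244 CPM, a log2 fold change of -2.55 ± 0.20 (adjusted p = 3.78e-16). The surface marker, the matrix gene and S100a4 thus stood well below basal in each of the 3 wells.

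Both PDGF receptors were lower too. Pdgfra was at 15.0, 17.9 and 18.6 CPM in bCFAE and at 33.8, 76.3 and 82.4 in basal, a log2 fold change of -2.02 ± 0.35 (adjusted p = 4.55e-06). Pdgfrb was at 16.5, 24.8 and 18.6 CPM and at 56.4, 99.8 and 63.4, a log2 fold change of -1.98 ± 0.31 (adjusted p = 6.85e-07). Thy1 and Prrx1 had the smallest falls, with log2 fold changes of -0.57 ± 0.17 and -0.50 ± 0.15 (adjusted p = 0.0077 and 0.00662). Both calls were lost without the second basal well (-0.45 for Thy1, -0.38 for Prrx1) or without the second bCFAE well (-0.42 and -0.43), and that of Prrx1 without the filter on low counts (-0.38). Pamr1, at 8.46, 2.94 and 9.51 CPM in basal, had 0 counts in all 3 bCFAE wells, which made it at least 4.20-fold lower with bCFAE set at 3 counts over the group.

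The TWIST factors rose against this. Twist2 was at 1256, 1184 and 1209.7 CPM in bCFAE and at 364, 482 and 285 in basal, a rise of 1.55 ± 0.17 on the log2 scale (adjusted p = 7.62e-11). Twist1 was at 104, 79.9 and 69.8 CPM and at 14.1, 38.2 and 28.5, a rise of 1.53 ± 0.32 (adjusted p = 8.55e-05). For the 9 tested members and Pamr1 the 3 bCFAE wells did not overlap the 3 basal wells, as was so for 47.3% of all genes tested. Among 12 tested partners and antagonists of the TWIST factors, 4 were higher and 3 lower. They included Id1, which sequesters E proteins, at 1.70 ± 0.16, the E protein gene Tcf12 at 1.65 ± 0.26 and Snai2, another mesenchymal repressor, at -1.18 ± 0.41. Of 23 tested fibroblast matrix and surface genes, 18 were lower and 2 higher, with a median of -1.71, led by the proteoglycan gene Dcn (-4.31 ± 0.34), the receptor gene S1pr3 (-3.46 ± 0.21) and Lum (-3.37 ± 0.49). Of 5 tested homeobox and forkhead factors of the mesenchyme, 4 were lower, among them Osr1 (-6.41 ± 0.55). Of 9 tested Ly6 and S100 neighbours, 6 were lower and 1 higher, and Ly6c1, a gene of the same cluster as Ly6a, fell by 4.50 ± 0.33.

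**Figure D1:**
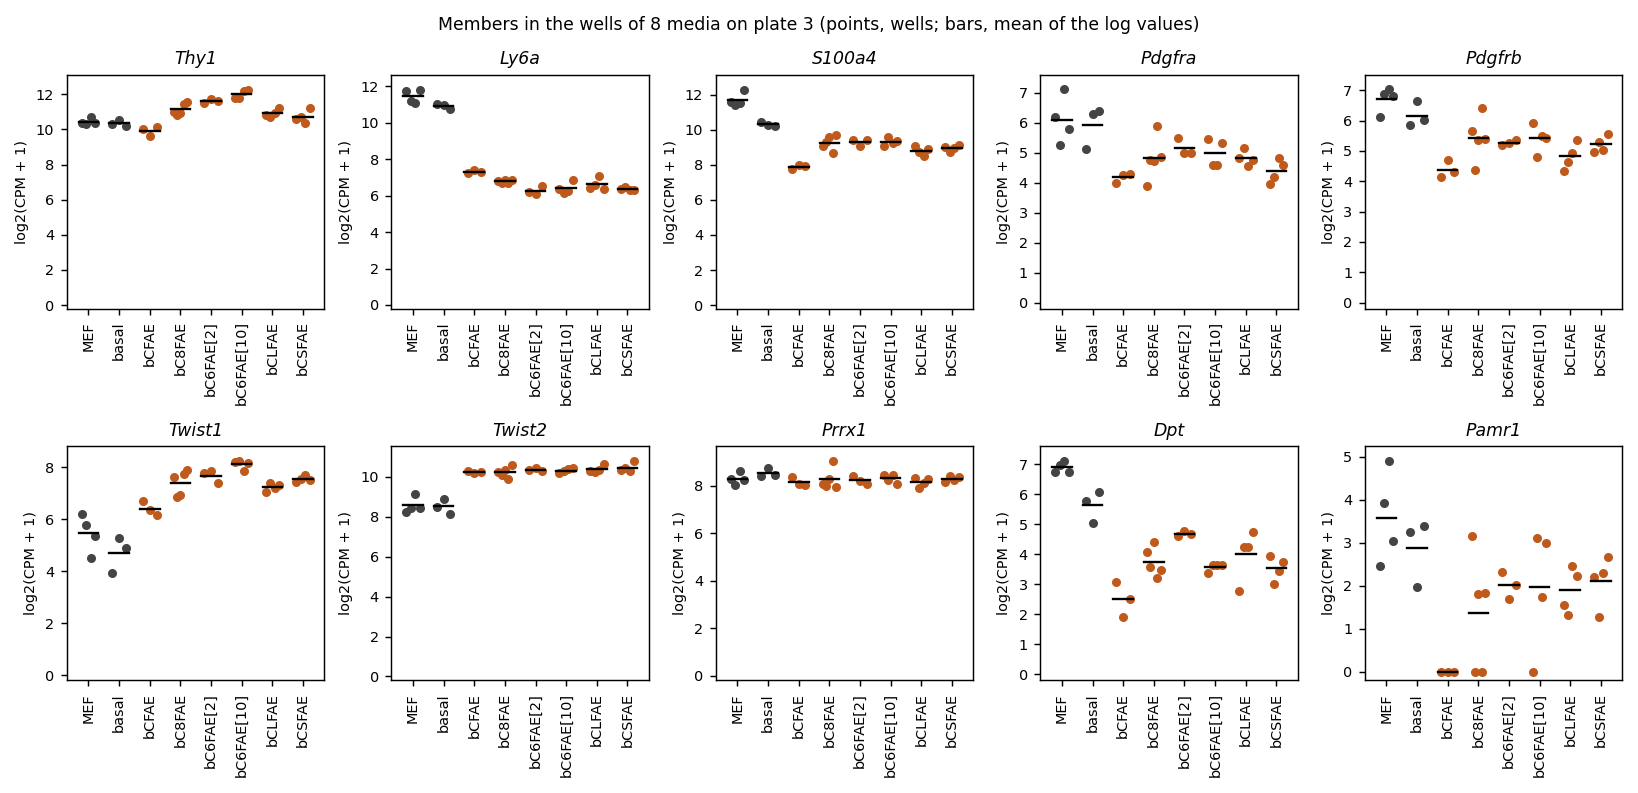
Level of each of the 10 members as log2(CPM + 1) per well (points) in the 8 media of plate 3 (MEF and basal grey, the others orange), with the mean of the log values as a bar. Ly6a, S100a4 and Dpt stand highest in MEF and next in basal, Twist2 is above MEF and basal in every well of the FAE media (947 CPM or more), and Prrx1 overlaps between neighbouring media.

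The screening medium, bC8FAE, was compared with the MEF wells to place the 10 genes before any compound was added. Of 9 tested members 5 were lower and 3 higher, where 32.1% of all genes were called, and the members' median was -1.35. Ly6a was at 111, 104, 114, 101 and 115 CPM against 2198 to 3612 in MEF, a log2 fold change of -4.77 ± 0.15 (adjusted p = 9.43e-34). Dpt was at 15.8, 10.9, 20.2, 8.38 and 10.2 CPM, a log2 fold change of -3.10 ± 0.26 (adjusted p = 4.38e-15), and S100a4 fell by 2.46 ± 0.15 from its MEF level to 411 to 816 CPM (adjusted p = 1.83e-20). These 3 did not overlap between the media. In all, 6 members did not, as was so for 1490 of the 6985 genes tested. Pdgfra (-1.42 ± 0.30) and Pdgfrb (-1.35 ± 0.24) were lower as well, with adjusted p of 0.000129 and 5.21e-06, though bC8FAE 4, the well of lowest total, reached 58.7 and 83.8 CPM and overlapped MEF.

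The 3 higher members were Thy1 and both TWIST genes. Thy1 was at 2036, 1788, 1968, 2791 and 3024 CPM in bC8FAE and at 1328, 1265, 1643 and 1298 in MEF, a rise of 0.67 ± 0.15 (adjusted p = 0.000173). Twist1 was at 198, 115, 121, 209.6 and 235 CPM against 71.6, 54.0, 21.6 and 39.5, a rise of 1.62 ± 0.22 (adjusted p = 1.48e-08). Twist2 was at 1219.6, 1084, 1280.1, 947 and 1571 CPM against 304, 349.6, 562 and 348, a rise of 1.67 ± 0.15 (adjusted p = 5.86e-14). All 3 stood above MEF in each of the 5 wells. Prrx1, at 246 to 519.7 CPM against 261 to 389, gave -0.12 ± 0.14 and did not pass.

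The other 5 FAE media were each compared with the same 3 bCFAE wells, so these comparisons share their controls and are not independent of one another. In bC8FAE against bCFAE, 5 members were higher and 0 lower, where 11.1% of all genes were called. S100a4 rose by 1.49 ± 0.19 on the log2 scale (adjusted p = 1.27e-08), Thy1 by 1.25 ± 0.16 (1.95e-08), Twist1 by 1.02 ± 0.18 (3.63e-05), Pdgfrb by 1.04 ± 0.31 (0.0188) and Dpt by 1.48 ± 0.49 (0.0392). The last 2 rest on few counts. Pdgfrb lost its call without bC8FAE 1 (0.93) or bCFAE 1 (0.88), and Dpt without bC8FAE 1 or 3 or bCFAE 2 or 3 (1.12 to 1.47). The number of members called without bC8FAE 1 was 3.

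With bC6FAE[2], 5 members were higher than in bCFAE and 1 lower, where 8.58% of all genes were called. Dpt was at 23.8, 26.6 and 24.6 CPM, above the 2.75 to 7.52 of bCFAE, a rise of 2.36 ± 0.46 (adjusted p = 0.000215). Thy1 was at 2908, 3378 and 3134 CPM, a rise of 1.77 ± 0.17 (7.74e-12), and S100a4 and Twist1 rose by 1.51 ± 0.20 and 1.35 ± 0.20 (8.19e-08 and 4.89e-07). Pdgfra, at 1.15 ± 0.38 (0.0446), lost its call without any 1 of the 6 wells (0.93 to 1.26). Ly6a, already low in bCFAE, was lower still at 73.3, 66.6 and 92.1 CPM, a log2 fold change of -0.96 ± 0.23 (0.00246).

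With bC6FAE[10], 4 members were higher than in bCFAE and 1 lower, where 13.6% of all genes were called. Thy1 reached its highest level of all media, 3534, 3546, 4737 and 4906 CPM against 789 to 1103, a rise of 2.15 ± 0.17 on the log2 scale (adjusted p = 1.43e-15). Twist1 also stood highest here, at 288.5, 298, 227 and 286 CPM, a rise of 1.73 ± 0.18 (1.27e-11). S100a4 rose by 1.48 ± 0.19 (1.79e-08), Pdgfrb by 1.13 ± 0.31 (0.00615) and Ly6a fell by 0.85 ± 0.20 (0.00136). Pdgfrb lost its call without bC6FAE[10] 1 (0.91) or bCFAE 1 (0.98).

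Set directly against each other, bC6FAE[10] and bC6FAE[2] differed in 0 of 9 tested members by edgeR, and 3 had an unadjusted p under 0.05, where 0.415% of all genes were called. DESeq2 also called 0. Thy1 (0.38 ± 0.16) and Dpt (-1.20 ± 0.39) were among the 3, with adjusted p of 0.501 and 0.241. The 4 bC6FAE[10] wells were all above the 3 bC6FAE[2] wells for Thy1, and all below them for Dpt (9.43 to 11.6 against 23.8 to 26.6 CPM). Of the 6985 genes tested, 727 likewise did not overlap between these media.

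The last 2 media compared with bCFAE were bCLFAE and bCSFAE. In bCLFAE 4 members were higher and 1 lower (6.5% of all genes called), with Dpt at 1.75 ± 0.46, Thy1 at 1.01 ± 0.16, S100a4 at 0.95 ± 0.19, Twist1 at 0.83 ± 0.19 and Ly6a at -0.66 ± 0.19. Dpt passed neither without bCFAE 2 (1.39) nor without bCLFAE 4 (1.49), and Ly6a lost its call without any 1 of 6 of the 7 wells (-0.70 to -0.57), so 3 members were called without bCFAE 2 or bCLFAE 4. In bCSFAE 3 were higher and 1 lower (6.1% of all genes called), with Twist1 at 1.10 ± 0.18, S100a4 at 1.06 ± 0.19, Thy1 at 0.82 ± 0.16 and Ly6a at -0.94 ± 0.19 (adjusted p = 1.01e-05, 7.25e-05, 0.000295 and 0.000435). Whether these values differ from those of the other media was not tested. Twist2 (0.04 to 0.23) and Prrx1 (0.00 to 0.19) passed in none of these comparisons with bCFAE.

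**Figure D2:**
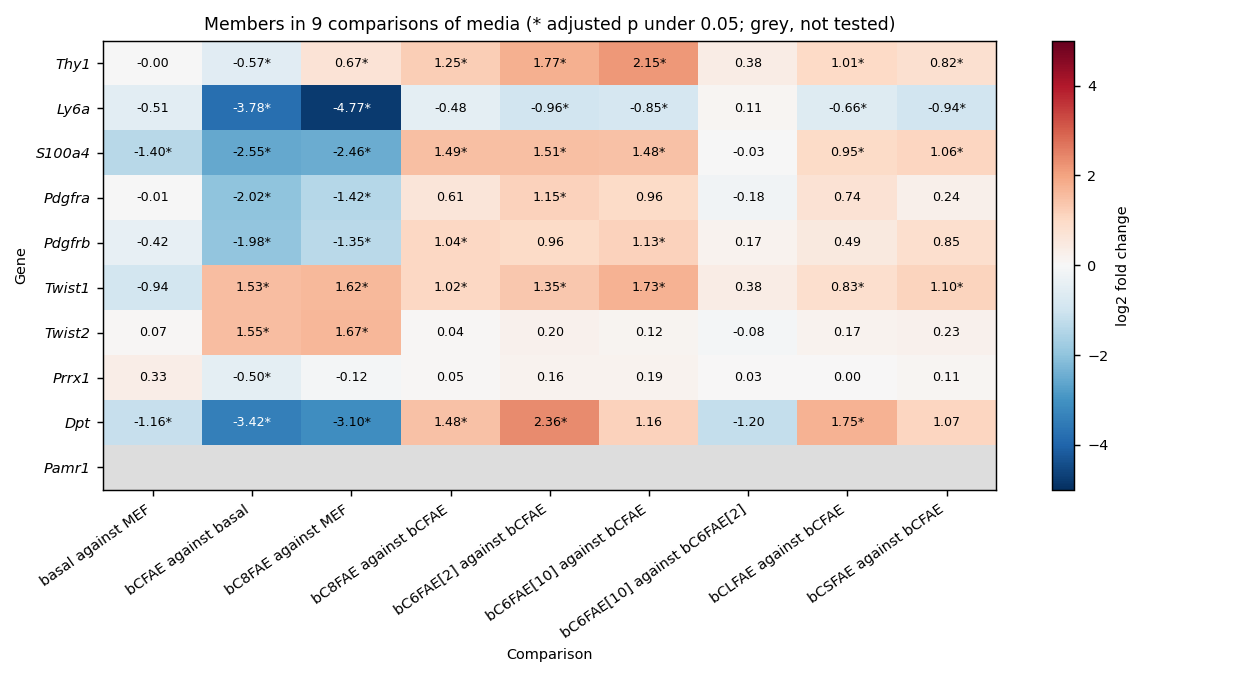
Log2 fold change (colour and printed value) of the members (rows) in the 9 comparisons of media (columns), with a star where the adjusted p was under 0.05 and grey for Pamr1, which was not tested. Ly6a and Dpt have the largest falls in bCFAE against basal (-3.78 and -3.42), while Twist1 and Twist2 rise there by 1.53 and 1.55.

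Ordered by their mean CPM over wells, the media gave each gene its own sequence of levels. Ly6a ran from MEF (2873) through basal (1963) to bCFAE (157), with no overlap between those neighbours, and from bC8FAE (109) down to bC6FAE[2] (77.3) each medium overlapped the next. S100a4 ran from MEF (3458) through basal (1270) to a group of 5 overlapping media (452 to 639.9) and then to bCFAE (238), which overlapped none. Dpt ran from MEF (119) through basal (50.8) to bC6FAE[2] (25.0) without overlap, and bCFAE was lowest at 4.98. The PDGF receptors were highest in MEF (Pdgfra 74.8, Pdgfrb 107) and lowest in bCFAE (17.2 and 20.0), and each medium overlapped its neighbour in the order. Twist2 formed 2 sets, 1217 to 1430 in the 6 FAE media and 377 to 391 in MEF and basal. Prrx1 spanned only 286 to 372, and all its neighbours overlapped. Pamr1 was highest in MEF (13.7) on 13 counts in all 4 wells.

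In the compound screen each compound was compared with the other screening wells of its plate, most on the strength of 1 well. All 10 members passed the filter on low counts on each plate. Over 2110 tests of a compound and a member, 38 calls were made, 21 higher and 17 lower, by 13 compounds. Over all genes and compounds, 0.365% of tests were called higher and 0.276% lower. The calls were uneven over the 10 genes. All calls for Ly6a (5), Dpt (6) and Pamr1 (5) were higher, and all those for Thy1 (7) and Twist2 (7) were lower. Twist1 had 2 higher and 1 lower, Pdgfrb 1 higher and 2 lower, and Pdgfra and Prrx1 1 higher each. S100a4 was called for 0 compounds, and 14 had an unadjusted p under 0.05. Limma-voom called it for 2 (CFI_400945 at -1.10 and FIIN_2 at -0.98), relative log expression factors for 2 (Trametinib at 1.15 and Ro_5126766 at 1.71), and the stricter minimum on well totals for 1 (Trametinib at 1.03).

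Ly6a rose with 5 compounds. On plate 1 its median over the other wells was 107 CPM, and the well with Trametinib, an inhibitor of MEK1 and MEK2, held 5007 CPM. That was a rise of 4.69 ± 0.63 on the log2 scale (adjusted p = 5.91e-09). GDC_0623, also a MEK inhibitor, held 4333 CPM, a rise of 4.54 ± 0.65 (2.91e-07). On plate 3, LY3009120, which inhibits RAF kinases, held 2569 CPM where the other 45 wells ranged from 45.6 to 417, a rise of 4.36 ± 0.29 (1.8e-17). On plate 2, Erdafitinib, an FGFR inhibitor, held 1031 CPM and BIBF_1120, which inhibits VEGF, FGF and PDGF receptors, held 825, against a median of 118. Their rises were 2.68 ± 0.51 and 2.51 ± 0.55 (7.27e-05 and 0.00726). These 5 wells stood above all others for Ly6a on their plates. Erdafitinib was listed for 2 wells whose counts were identical, and they were used as 1.

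Dpt and Pamr1, the secreted genes, rose together with 5 compounds, and Dpt rose with 1 more. Dpt was at 166 CPM with GDC_0623, 152 with Trametinib and 147 with CCT196969, a RAF and SRC family inhibitor, where the plate median was 11.2. It was at 154 with Erdafitinib and 129.7 with FIIN_2, another FGFR inhibitor (median 12.3), and at 174 with LY3009120 (median 12.5, highest other well 36.0). The rises lay between 2.76 ± 0.71 (FIIN_2, adjusted p = 0.00633) and 3.67 ± 0.40 (LY3009120, 1.32e-09). Pamr1 was at 322 CPM with GDC_0623, 237 with Trametinib, 252 with LY3009120, 74.4 with Erdafitinib and 74.9 with FIIN_2, with plate medians of 2.52 to 3.15. Its rises ran from 3.66 ± 0.76 (FIIN_2, 0.000553) to 5.61 ± 0.49 (LY3009120, 9.37e-13). By pooled counts Pamr1 was 50.5 times its level in the other wells with LY3009120 (95% interval 37.7 to 67.7, counting error only).

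Twist2 fell in wells where these genes rose. It was at 341 CPM with Trametinib and 428 with GDC_0623 (median of the others 873), at 236 with FIIN_2 and 392 with Erdafitinib (median 1129), and at 439 with LY3009120 (median 1239). In that order the log2 fold changes were -1.54 ± 0.37, -1.13 ± 0.36, -2.54 ± 0.38, -1.71 ± 0.37 and -1.42 ± 0.33, with adjusted p of 0.00169, 0.0493, 8.26e-07, 0.000587 and 0.00396. Twist2 also fell with BEZ235 (551 CPM, -1.04 ± 0.34) and LDC4297 (681 CPM, -0.99 ± 0.33), where none of Ly6a, Dpt and Pamr1 was called. Twist1 went the other way from Twist2 with Erdafitinib (113 CPM, 0.86 ± 0.28) and FIIN_2 (129.7 CPM, 0.96 ± 0.31), against a median of 54.9. Both genes were lower with LDC4297, a CDK7 inhibitor, where Twist1 was at 93.9 CPM against a median of 190.3 (-1.27 ± 0.39).

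Thy1 fell with 7 compounds, 3 of which (FIIN_2, BEZ235 and LDC4297) were among the 7 for which Twist2 was called lower. NT157, an inhibitor of IRS proteins, left 108 CPM where the other wells of plate 2 had a median of 3087 and a lowest value of 594. This was a log2 fold change of -4.72 ± 0.87 (adjusted p = 8.88e-06), 26.3-fold by pooled counts. MCB_613, a stimulator of steroid receptor coactivators, left 209 CPM and PF_04979064, a PI3K and mTOR inhibitor, 272, against a median of 2180 on plate 1, log2 fold changes of -3.49 ± 0.81 and -2.97 ± 0.83 (0.00634 and 0.0208). BEZ235, also a PI3K and mTOR inhibitor, left 239 CPM against a median of 2288 on plate 3, a log2 fold change of -3.19 ± 0.67 (0.000939). APTO_253 (306 CPM), FIIN_2 (614) and LDC4297 (509) gave -2.87 ± 0.80, -2.53 ± 0.79 and -2.35 ± 0.65. Of the 7, FIIN_2 alone was also called higher for Dpt or Pamr1. MCB_613 was also listed for 2 wells with identical counts, used as 1. Of all genes tested, 4.61% were called with MCB_613, 4.59% with PF_04979064, 11.5% with BEZ235 and 4.34% with APTO_253.

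The receptor genes were called rarely. Pdgfrb was at 3.87 CPM with MCB_613, on 2 counts, which was 0.106 times its level in the other wells (95% interval 0.0128 to 0.382). It was at 7.99 CPM with LDC4297, on 4 counts, a log2 fold change of -2.25 ± 0.65 (adjusted p = 0.0109), and at 108 CPM with Erdafitinib against a median of 34.7, a rise of 1.46 ± 0.35 (0.00226). Pdgfra was called once, with Erdafitinib, at 51.0 CPM against a median of 19.8, a rise of 1.22 ± 0.41 (0.0352). Prrx1 was called once as well, with NT157, at 429 CPM against a median of 262, a rise of 0.70 ± 0.19 (0.00397). In that well 28.2% of all genes tested were called. The other wells of plate 2 spanned 188 to 476 CPM, so the NT157 well was not the highest. Of the 38 calls, limma-voom did not make 4: Dpt with CCT196969 (3.51) and FIIN_2 (3.15), Twist1 with FIIN_2 (0.99) and Pdgfra with Erdafitinib (1.3). Without the filter on low counts 6 were lost: Thy1 with APTO_253, Twist1 with FIIN_2, Pdgfra with Erdafitinib, and Twist2 with GDC_0623, BEZ235 and LDC4297.

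**Figure D3:**
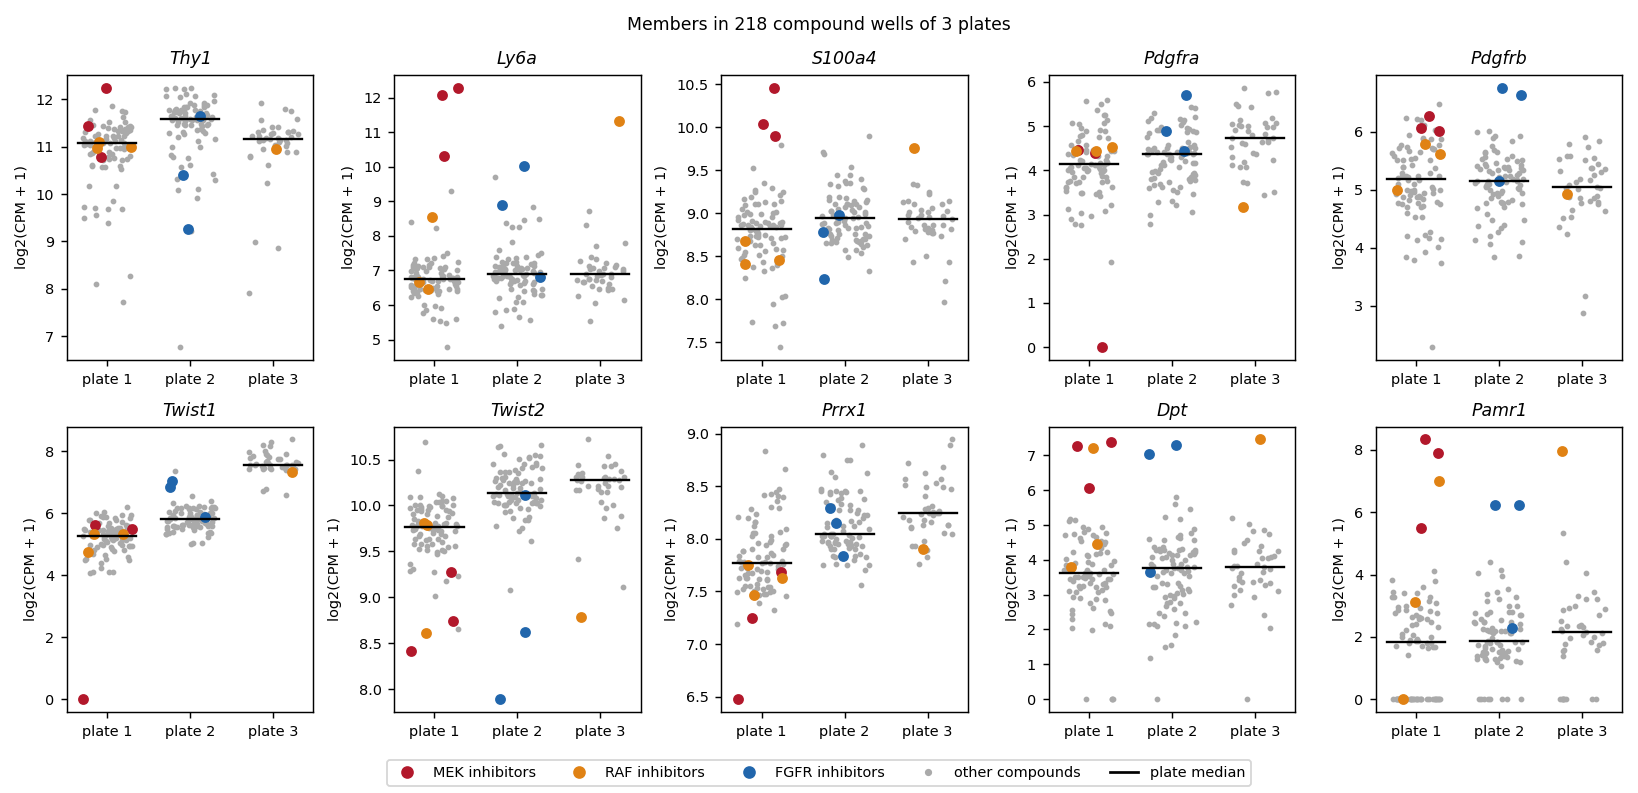
Level of each member as log2(CPM + 1) per compound well (points) on the 3 plates, with MEK, RAF and FGFR inhibitors coloured and a bar at the plate median. Most coloured points lie above the other wells for Ly6a, Dpt and Pamr1 and toward the bottom for Twist2, the lowest Thy1 points are other compounds, and the Twist1 wells of plate 3 lie above all those of plate 1.

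A total of 6 compounds were called for 4 or more members. Of all genes tested, 11.7% were called with Erdafitinib (7 members), 9.81% with FIIN_2 (5), 4.65% with GDC_0623 (4), 13.2% with Trametinib (4), 4.71% with LY3009120 (4) and 19.6% with LDC4297 (4, all lower). With the first 5 of these, more genes of the fibroblast matrix and surface list were called higher than lower: 14 of 25 with Erdafitinib (1 lower), 8 of 25 with FIIN_2 (4 lower), 13 of 23 with GDC_0623 (0 lower), 12 of 23 with Trametinib (2 lower) and 14 of 24 with LY3009120 (0 lower). The collagen gene Col1a1 rose by 3.58 ± 0.59 with FIIN_2 and by 3.98 ± 0.49 with Erdafitinib, and Mfap5, a microfibril gene, by 5.17 ± 0.64 with LY3009120 and 5.86 ± 0.66 with Trametinib. Ly6c1 rose with Ly6a, by 4.24 ± 0.56 with GDC_0623 and 3.95 ± 0.37 with LY3009120. With LDC4297 the list went the other way, with 1 higher and 8 lower of 24, Lum at -4.45 ± 1.10.

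Markers of other cell types were raised in some of these wells. Summed epithelial markers were at 870.0 CPM with Trametinib, 529 with BEZ235 and 477 with PF_04979064, where the plate medians were 31.1 to 37.8, and the keratin gene Krt8 rose by 4.22 ± 0.83 with Trametinib. The epithelial sum was 40.2 CPM with LY3009120 and 66.3 with GDC_0623. Epcam was at 0 in all 90 screening wells of plate 1, those of Trametinib, PF_04979064 and GDC_0623 among them. Summed neural markers were at 497 CPM with Trametinib, 223 with GDC_0623 and 142 with LY3009120, where the medians of plates 1 and 3 were 92.3 and 131. Most of each sum was the tubulin gene Tubb3 alone, at 497, 214 and 123 CPM. In these 3 wells Tubb3 rose by 3.75 ± 0.40, 2.52 ± 0.59 and 2.27 ± 0.40 (adjusted p = 1.82e-12, 0.00297 and 6.12e-05). Nefl was at 0 counts with Trametinib. Summed skeletal muscle markers were at 449 CPM with Trametinib, nearly all from the intermediate filament gene Des (445 CPM, a rise of 3.84 ± 0.50), beside a plate median of 20.8. Summed macrophage markers were at 535 CPM with NT157, 290 with BEZ235 and 254 with PF_04979064, where the plate medians were 53.7 to 64.6, and the part of these markers in the changes of the members was not tested.

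LY3009120 shared its plate with the MEF wells, so their levels can be set side by side. Ly6a (2569 CPM) and Twist2 (439) lay within the range of the 4 MEF wells (2198 to 3612 and 304 to 562). Dpt (174) and Pamr1 (252) lay above it (107 to 137 and 4.47 to 28.8), as did Thy1 (1987) and Twist1 (161). S100a4 (862), Pdgfra (8.04, on 3 counts), Pdgfrb (29.5) and Prrx1 (238) lay below it. Of the 10 genes, then, 4 were above, 4 below and 2 within the MEF range. Set beside the bC8FAE wells, Thy1 (1788 to 3024), Pdgfrb (19.5 to 83.8) and Twist1 (115 to 235) stayed within their range. Ly6a, Dpt, Pamr1 and S100a4 (highest bC8FAE well 816) lay above that range, and Twist2, Pdgfra and Prrx1 lay below it.

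Compounds were next grouped by their main target into classes of 2 to 15 wells. The wells of a class hold different compounds and are not replicates of 1 treatment. Of 26 classes, 21 had 0 members called and 5 had 18 calls in all. Most of those 21 called at most 1 gene of any kind, such as PI3K (0 of 6324 genes), EGFR/HER2 (0 of 6982) and VEGFR (1 of 7084). The most in any of them was 137 of 7845, with CDK1/2/7/9. A count of 0 members in these classes therefore says little about the members. The 3 MEK inhibitors of plate 1 gave 6 calls of 10 members, where 22.4% of all genes were called. Pamr1 rose by 5.44 ± 0.41 on the log2 scale (adjusted p = 1.97e-21), Ly6a by 4.82 ± 0.21 (2.06e-38), Dpt by 3.19 ± 0.39 (4.94e-11) and S100a4 by 1.22 ± 0.22 (4.31e-06). S100a4 was at 955, 1046 and 1409 CPM in these 3 wells beside a plate median of 449. Twist2 fell by 1.10 ± 0.20 (1.17e-05) and Prrx1 fell by 0.62 ± 0.21 (0.0216), and Prrx1 lost its call without GDC_0623 (-0.58) or Ro_5126766 (-0.51), with relative log expression factors (-0.55) and at the stricter minimum on well totals (-0.51). The Ro_5126766 well held only 45416 counts, 14.3% of its plate median. There Ly6a was at 1277 CPM on 58 counts, Dpt rested on 3 counts and Pamr1 on 2, and no member was called for this compound alone. Markers of other cell types moved with this class too. The epithelial genes Epcam and Cdh1 were not tested, and Epcam was at 0 in all 90 screening wells of plate 1. All 3 tested epithelial genes, each a keratin, were higher (Krt8 at 3.17 ± 0.68, Krt19 at 3.09 ± 0.54 and Krt18 at 2.67 ± 0.49). Tubb3 (3.18 ± 0.25) and Des (2.91 ± 0.39) were higher as well, and Nefl was lower (-3.60 ± 0.71). Their part in the class result was not tested.

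By class, the 4 RAF inhibitors had 3 members called: Pamr1 (3.75 ± 0.57), Dpt (2.50 ± 0.37) and Ly6a (2.41 ± 0.54) were higher, where 2.49% of all genes were called. Their wells were far apart. Ly6a was at 2569 CPM with LY3009120, 371 with CCT196969, 101 with the compound named BRAF_inhibitor and 88.1 with Dabrafenib. In the same order, Dpt was at 174, 147, 20.7 and 12.95 and Pamr1 at 252, 129, 7.76 and 0. Without LY3009120 no member of this class was called: Ly6a turned to -0.30, Dpt was at 1.77 and Pamr1 at 2.09. The reference was then the rest of plate 1, which held the MEK inhibitor wells Trametinib (Ly6a at 5007 CPM) and GDC_0623 (4333). The median of Ly6a over the compound wells of that plate was 107 CPM, so -0.30 does not show a fall below the typical well. LY3009120 was on plate 3 and the other 3 on plate 1, and the difference between them was not tested.

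Among the 3 compounds classed as FGFR inhibitors, all on plate 2, 5 members were higher and 1 lower, where 13.9% of all genes were called. The class does not hold every compound that acts on FGF receptors. BIBF_1120, which inhibits them among other receptors, was in its reference. Pamr1 rose by 3.46 ± 0.36, Dpt by 2.61 ± 0.35, Ly6a by 1.79 ± 0.36, Pdgfrb by 1.05 ± 0.23 and Twist1 by 0.70 ± 0.17, and Twist2 fell by 1.04 ± 0.19 (adjusted p = 6.21e-13, 5.8e-09, 0.000117, 0.000544, 0.00193 and 2.84e-05). The third compound, SU_5402, stood apart, with Ly6a at 112 CPM, Dpt at 11.6 and Twist2 at 1109, all near the plate medians. Without Erdafitinib the calls of Ly6a (0.84), Pdgfrb (0.71) and Twist1 (0.57) were lost, and without FIIN_2 those of Twist1 (0.57) and Twist2 (-0.63).

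**Figure D4:**
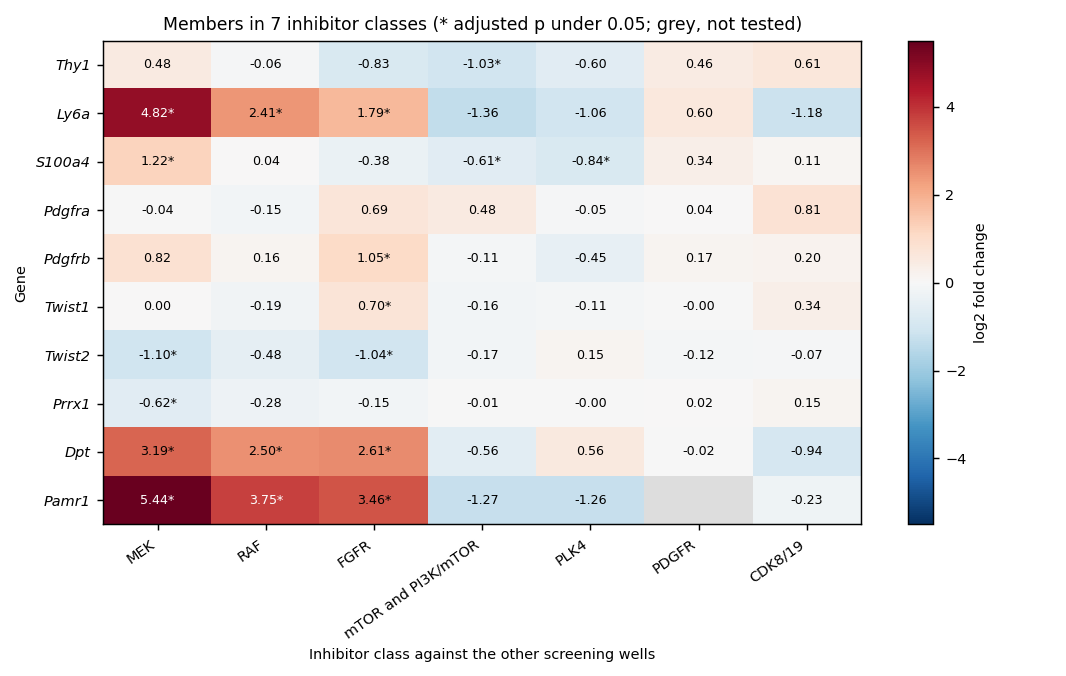
Log2 fold change (colour and printed value) of the members (rows) in 7 inhibitor classes (columns) against the remaining compound and bC8FAE wells of their plates, with a star where the adjusted p was under 0.05 and grey where not tested. Pamr1, Ly6a and Dpt lie above 0 and Twist2 below 0 for the MEK, RAF and FGFR inhibitors, and the members of the PDGFR class lie between -0.12 and 0.60.

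The 5 compounds that inhibit mTOR or both PI3K and mTOR (6 wells) had 2 of 10 tested members called lower. That is about the share over all genes, 20.2%, so the count does not set the members apart from other genes. The 2 were Thy1 at -1.03 ± 0.29 (adjusted p = 0.00513) and S100a4 at -0.61 ± 0.17 (0.00498). Thy1 was at 272 CPM with PF_04979064, 239 with BEZ235, 927 with GNE_317, 2312 with PI_103 and at 2301 and 1275 in the wells of CC_115, and its call was lost without PF_04979064 (-0.84) or BEZ235 (-0.82). The 3 PLK4 inhibitors (4 wells) had S100a4 called lower at -0.84 ± 0.24 (0.029), where 3.58% of all genes were called, and the call was lost without Centrinone_B (-0.90) or CFI_400945 (-0.57), or without the filter on low counts (-0.81). S100a4 was at 206 and 213 CPM in the wells of CFI_400945.

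The 12 PDGFR inhibitors (15 wells) are the class whose targets are themselves members. None of 9 tested members was called by edgeR, 2 had an unadjusted p under 0.05, limma-voom called 0, and 1.08% of all genes were called. Pdgfra gave 0.04 ± 0.16 and Pdgfrb 0.17 ± 0.15. S100a4 (0.34 ± 0.10, adjusted p = 0.0574) was called at the stricter minimum on well totals, and Thy1 (0.46 ± 0.16, 0.11) was above the median of the other wells in 14 of 15 wells. The CDK8/19 class, whose target the title of the series names, had 2 compounds on 2 plates. There edgeR and limma-voom called 0 of 10 members, 1 had an unadjusted p under 0.05 (Pdgfra, 0.81 ± 0.38), and 0.158% of all genes were called. Thy1 was at 3017 and 4827 CPM and Ly6a at 66.1 and 78.3 in these wells.

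Across the 218 compound wells the members varied in separate ways. Correlations of log2(CPM + 1) centred on the plate mean are given as a description, since the wells share pools and depth. Thy1 went most closely with Fbln1 (Pearson r = 0.83), Sdc1 (0.82) and Fkbp10 (0.81), and Twist2 with Pkm (0.77), Serinc2 (0.74) and Dap (0.72). Ly6a went with Col12a1 (0.72), Col1a1 (0.71) and Ly6c1 (0.70), Dpt with Rcn3 (0.67), Col1a1 and Col1a2 (0.63 each), and Pamr1 with Col1a1 (0.64), Cd248 (0.61) and Col1a2 (0.60). Pdgfrb went with Crispld2 (0.66), Mmp2 (0.61) and Nrep (0.60). The values for Ly6a, Dpt and Pamr1 rested in part on few wells. Without the 10 wells of MEK, RAF and FGFR inhibitors, the r of each with Col1a1 fell to 0.43, 0.43 and 0.34, whereas that of Thy1 with Fbln1 was 0.87.

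The remaining genes had looser ties. Twist1 had an r of 0.62 with Hmg20b, 0.61 with Prkaca and 0.60 with Pagr1a, which fell to 0.22, 0.23 and 0.12 without those wells. Prrx1 had 0.62 with Pabpc1, 0.62 with mt-Nd2 and 0.61 with Serbp1, Pdgfra 0.53 with Rnf216 and 0.50 with Ppil4, and S100a4 0.50 with Tuba1a, 0.47 with Mrpl28 and 0.43 with Uqcc2. Without those wells the values for Pdgfra were 0.37 and 0.33, and those for S100a4 were 0.40, 0.45 and 0.31. Among the members themselves, Ly6a and Twist2 had an r of -0.61, Ly6a and Pamr1 0.56, Thy1 and Pdgfrb 0.52, Twist2 and Pamr1 -0.50 and Ly6a and Dpt 0.48. Without the 10 wells these were -0.39, 0.22, 0.60, -0.20 and 0.20. The related pairs gave 0.04 (Twist1 with Twist2) and 0.20 (Pdgfra with Pdgfrb), and 0.15 and 0.24 without those wells.

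**Figure D5:**
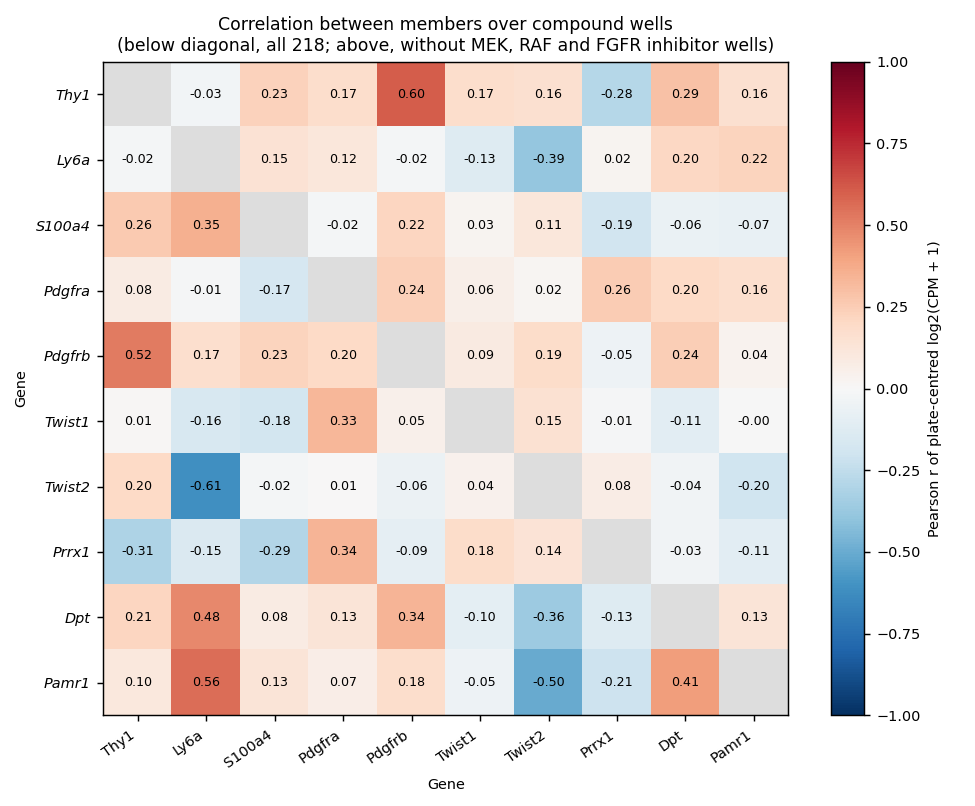
Pearson r of log2(CPM + 1), centred on the plate mean, between each pair of members, below the diagonal over all 218 compound wells and above it over the 208 left without MEK, RAF and FGFR inhibitors. The lowest value below the diagonal is that of Ly6a with Twist2 (-0.61) and the highest that of Ly6a with Pamr1 (0.56).

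The plates themselves set 1 member apart. The median of Twist1 over compound wells was 37.3 CPM on plate 1, 55.1 on plate 2 and 187 on plate 3, a ratio of 5.00 between plates 3 and 1. The highest of the 90 wells of plate 1 (72.7) was below the lowest of plate 3 (93.9). For the other 9 members the ratio of these medians was 0.90 to 1.55. Of the 5490 genes that averaged 20 CPM or more, 0.128% differed as far between these plates as Twist1. They were Shfm1, Igfbp3, Pxdc1, 9530068E07Rik, Anxa1 and Psmb7, named after their values were seen. The plates were separate pools with different compounds, and what set Twist1 apart was not tested. Compounds were therefore compared within a plate only.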

How the data were processed

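DRUG-seq2 wells of mouse embryonic fibroblasts on 3 plates were analysed. The authors deposited 1 table of whole-number counts per gene and well, unscaled as far as the values show, and a barcode list per plate that names its wells. Per the submitters' processing notes, STAR and the mm10 genome were used. The sources used here give neither the STAR version nor the annotation, nor how reads were counted, by strand or by molecular identifier. Of 274 columns, 20 were left out: 6 whose name no list held, 10 whose name was listed on 2 plates, and 4 exact repeats of a column. That left 254 wells. Wells of the screen also needed at least 10% of their plate's median total, which removed 4.

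CPM is the count per 1000000 counts of the well. Tests used edgeR 4.0.16 (R 4.3.3) on the counts, with TMM scaling, filterByExpr at a minimum count of 10, the quasi-likelihood test and Benjamini-Hochberg adjustment over all genes tested. Adjusted p values are edgeR's unless another tool is named, and calls are those under 0.05. The media shared 1 fit of 30 wells. A compound was compared with the other screening wells of its plate, with the spread estimated over all of them. A class was compared with the other wells of its plates, with a plate term. Compounds that respond alike therefore sit in each other's reference. Classes were written by hand from textbook knowledge of the compounds. The tests were checked on simulated counts. The members, gene lists and classes were chosen with earlier results of these data known.

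All 10 members were named throughout. For each member the rule named up to 4 called compounds that rose furthest and up to 4 that fell furthest, each compound called for 4 or more members, the 3 genes of highest r (averaging 20 CPM or more), and up to 3 called genes per list. A gene that the rule named for Pdgfra is not reported here. BIBF_1120 for Ly6a, APTO_253 for Thy1 and BEZ235 for Twist2 fall outside it and were added after their values were seen. Replicate numbers of the media wells did not pair: the median correlation of deviations was 0.0079 for the same number and -0.0025 for other numbers. Alternatives were relative log expression (RLE) factors, no filter, limma-voom (limma 3.58.1), DESeq2 1.42.0, a minimum of 25% of the plate median, a block on the well number, and leaving out 1 well or compound at a time. Intervals are at 95% and cover counting error only.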

Additional observations from a re-analysis of the deposited data

Results flagged for a closer look

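Each group of 4 or 5 media wells was searched for a well far from the rest, by Dixon's criterion, for each of the 10 members. Of 50 such groups, 5 held one, and chance flags about 1 in 20. Thy1 was at 1643 CPM in MEF 3, above the 1265 to 1328 of the other MEF wells, in the MEF well of lowest total (138747 counts). S100a4 was at 5010.3 CPM in MEF 4, above 2774 to 3048. Twist1 was at 227 CPM in bC6FAE[10] 3, below 286 to 298. Prrx1 was at 519.7 CPM in bC8FAE 4, above 246 to 309, on 62 counts in the media well of lowest total (119295). Dpt was at 9.43 CPM in bC6FAE[10] 1, below 11.5 to 11.6, on 5 counts. The other wells of that medium held 6, 5 and 5 counts at smaller totals (530273 in well 1, 520908 to 430659 in the others). The well was thus apart in CPM and not in its count. What set the other flagged wells apart was not tested.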

How the results depend on the processing

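Directions of the media calls did not turn under any setting run. RLE factors, the block on the well number and leaving out the low wells MEF 3 and bC8FAE 4 (chosen with their totals known) left 44 of 44 calls past the threshold, and the block left all 9 counts of called members within 1.5 times (for instance 9 for bCFAE against basal). Without the filter 42 of 44 remained, and with DESeq2 41 of 43, where basal against MEF kept 1 call in place of 2. Leaving out 1 well gave counts of 1 to 3 for basal against MEF, 7 to 9 for bCFAE against basal, 8 to 8 for bC8FAE against MEF, 3 to 5 for bC8FAE and for bCLFAE against bCFAE, 5 to 5 for bC6FAE[2], 4 to 6 for bC6FAE[10] and 4 to 4 for bCSFAE against bCFAE, and 0 to 0 for bC6FAE[10] against bC6FAE[2]. Of 38 compound calls, 38 remained with RLE factors and with the stricter well minimum, 34 with limma-voom and 32 without the filter. Of 18 class calls, 18 remained with limma-voom and 17 with each other setting, and leaving out 1 compound gave 15 to 21. Ly6a in the RAF class ranged from -0.30 (not called) without LY3009120, its well of highest Ly6a, to 2.82 without Dabrafenib. The value of -0.30 is against plate 1 alone, with its MEK inhibitor wells in the reference. The cause of the other changes was not tested. Pamr1 and Dpt, at a few counts in most wells, are limited by depth.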
